A study of Mus musculus with 6 samples.

Results

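Tubulin genes encode the subunits of microtubules, and 10 of them were followed here in mouse primary pulmonary fibroblasts: the alpha isotypes Tuba1a, Tuba1b and Tuba1c, the beta isotypes Tubb2a, Tubb2b, Tubb3, Tubb4b, Tubb5 and Tubb6, and the gamma-tubulin gene Tubg1. They were taken by symbol from a table of 25239 genes, all 10 were present, and all 10 were among the 14065 genes that passed the filter on low counts. RNA depleted of ribosomal RNA was sequenced from 3 libraries labelled quiescent and 3 labelled Nutlin 3a-induced senescent, all from primary cells kept in 10% serum at 5% oxygen. Senescence was induced, per the labels, by 16 hours of the Cdk1 inhibitor RO3306, 48 hours of Nutlin 3a, which frees p53 from Mdm2, and then 100 nM of the Plk1 inhibitor BI-2536 against cells still dividing, for 12 days in all. This treatment text stands on the quiescent samples too, so what those cells received is not settled by the labels. Strain, age and the number of animals or cultures behind the replicates are not given, so p-values here reflect only the spread among these libraries, which may be technical.

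Microtubules are hollow polymers of heterodimers, each made of 1 alpha- and 1 beta-tubulin, while gamma-tubulin sits in ring complexes that start new microtubules at centrosomes and other sites. Mammals carry several alpha and beta genes whose products, the isotypes, differ mostly in the acidic tail at the carboxyl end, where motors, severing enzymes and tail-modifying enzymes bind. Cells also hold tubulin mRNA in check through the first residues of the growing tubulin chain: when free dimers are plentiful, the factor TTC5 recognises that start on the ribosome and the mRNA is degraded. In fibroblasts microtubules carry transport, polarity and, in dividing cells, the spindle.

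The coding starts are shown because that feedback reads them, and they were the same in all 3 alpha genes, whereas 5 beta genes used 4 different spellings of the same residues. They are the first 12 coding bases, with no capitals, from the GENCODE M21 transcripts (GRCm38, the assembly that mm10 names).
Tuba1a, Tuba1b and Tuba1c: atgcgtgagtgc
Tubb2a: atgcgcgagatc
Tubb2b: atgcgagagatc
Tubb3 and Tubb4b: atgagggagatc
Tubb5: atgagggaaatc

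The coding ends of beta genes show how far these isotypes can be told apart by their bases in a sequencing read. Each run below is the last 75 coding bases with the stop codon, written 5′ to 3′ on the coding strand. Capitals mark bases without an identical partner in Tubb5 when whole coding sequences were aligned. A base in capitals need not change the encoded residue.
Tubb5 (chr17:35834982-35835056, minus strand): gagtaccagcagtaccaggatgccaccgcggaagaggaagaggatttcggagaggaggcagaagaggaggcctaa
Tubb2a (chr13:34074468-34074542, minus strand): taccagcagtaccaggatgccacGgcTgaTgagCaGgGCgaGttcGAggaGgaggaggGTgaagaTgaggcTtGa
Tubb2b (chr13:34127471-34127545, minus strand): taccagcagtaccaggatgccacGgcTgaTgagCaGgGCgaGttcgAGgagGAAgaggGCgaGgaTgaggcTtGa
Tubb4b (chr2:25222308-25222382, minus strand): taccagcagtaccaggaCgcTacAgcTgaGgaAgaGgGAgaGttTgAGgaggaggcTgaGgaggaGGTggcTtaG
Tubb3 (chr8:123421608-123421682, plus strand): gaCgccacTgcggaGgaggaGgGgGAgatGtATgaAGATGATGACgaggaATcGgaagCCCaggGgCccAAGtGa

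Tubb3 departed most from Tubb5 among the ends shown, at 32 of these 75 bases, and Tubb2a least, at 16. Codons GAA and GAG, for the acidic residue glutamate, numbered 9 of the last 20 codons in Tubb5, 10 in Tubb4b and 8 in Tubb2a, Tubb2b and Tubb3. Codons for aspartate, the other acidic residue, also occur in these ends and were not counted. These numbers therefore do not rank the tails by acid character. Set against each other, the ends of Tubb2a and Tubb2b differed at 3 bases, none of which changes the encoded residue:
Tubb2b, capitals where it differs from Tubb2a: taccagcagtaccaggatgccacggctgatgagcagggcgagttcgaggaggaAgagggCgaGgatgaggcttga

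Over whole coding sequences, the alpha genes were 97.1% to 98.3% identical in bases, with 23 of 1356 aligned positions differing between Tuba1a and Tuba1b. Tubb2a and Tubb2b were 96.5% identical, and the other pairs of beta genes lay between 80.2% (Tubb5 and Tubb6) and 85.9% (Tubb3 and Tubb6). A single read of 100 bases can therefore fit several genes. Reads here were paired, so a mate outside the shared stretch may still place the fragment. Of all 100-base windows of the transcript, 65.8% in Tuba1a, 73.0% in Tuba1b and 53.4% in Tuba1c occurred word for word in a transcript of another gene. The share was 36.9% in Tubb2a, 27.7% in Tubb2b, 30.6% in Tubb4b and 4.1% in Tubg1, and 0 of the 1769, 2550 and 1659 windows of Tubb3, Tubb5 and Tubb6 were shared. Matches in gene models that overlap the same exons are included, namely Gm49450 for Tuba1a and Tuba1b and Fam166a for Tubb4b. How reads with several positions were counted was not given in the sources used here. The counts of the 3 alpha genes, of Tubb2a and Tubb2b and of Tubb4b are therefore uncertain. For Tubb3, Tubb5 and Tubb6 no shared window was found. The search used exact matches of a single transcript per gene, so inexact matches, other exons and unannotated copies were not covered.

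**Figure D1:**
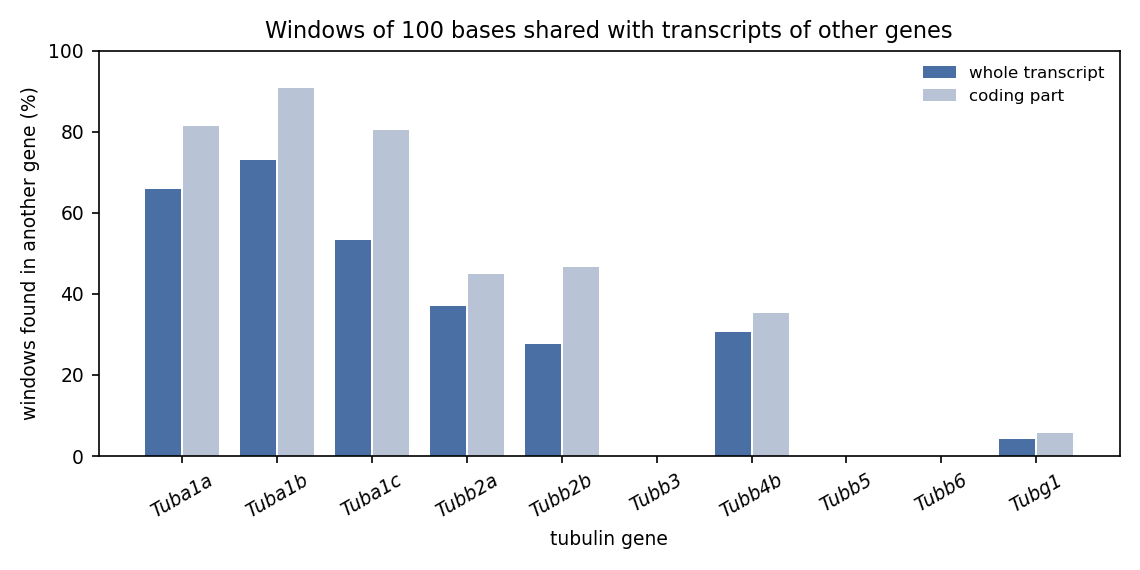
Percentage of 100-base windows of each tubulin transcript (y axis, dark bars for the whole transcript, pale bars for its coding part) that occur in an annotated transcript of another gene. The alpha genes stand highest, at 53.4% to 73.0% of the whole transcript, and Tubb3, Tubb5 and Tubb6 are at 0.

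In senescent libraries 7 of the 10 tubulin genes were higher and 2 lower at an adjusted p under 0.05 in edgeR's quasi-likelihood test, and Tubg1 did not pass. Tubb2a, Tubb2b, Tubb6, Tuba1c, Tubb4b, Tubb5 and Tuba1b rose, and Tuba1a and Tubb3 fell. Across all genes tested, 36.7% were higher, 37.8% lower and 74.5% called in either direction, so 9 called of 10 is read against a background in which most genes moved. The median log2 fold change of the 10 was 0.44, beside -0.02 over all genes tested. Changes over 2-fold were found for 3 risen members (11% of all genes tested) and 1 fallen member (14.3%). For 9 members the senescent libraries did not overlap the quiescent ones in CPM, as for 78.3% of all genes tested.

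CPM here are counts divided by the library total, in the usual CPM units, with totals adjusted by TMM, a scaling that assumes most genes do not differ, and the totals include the abundant ribosomal rows, so the values look low. Totals ran from 93736593 to 109706025 counts, of which 18219831 to 21386546 lay outside 3 rows treated here as ribosomal, Rn45s, Lars2 and Mir6236. These 3 rows held 79.8% to 82.8% of the counts, although the RNA is labelled as depleted of ribosomal RNA. Lars2 and Mir6236 are not named as ribosomal RNA, and the origin of their reads was not tested. Senescent replicate 3 lay farthest from the other libraries of its group, 0.32 on the log2 scale as a root mean square over genes, against 0.19 to 0.27 for the other 5. The 9 fibroblast markers were all detected, and their summed level was 3861 to 3950 CPM in quiescent and 2194 to 2666 in senescent libraries. Of these markers 5 were lower, 3 higher and 1 not called, beside 37.8% lower and 36.7% higher among all genes tested. The collagen gene Col3a1 fell from 1342 ± 70.4 to 348 ± 46.2 CPM (SD, n = 3 per group, as throughout), Pdgfra and Pdgfrb fell by 1.45 and 1.01 on the log2 scale, Thy1 rose by 2.72, and Col1a1 was the marker not called (967 ± 53.5 and 857 ± 104 CPM). The part of this shift in fibroblast markers in the tubulin changes was not tested. The marker of dividing cells Mki67 was higher in the libraries labelled quiescent, at 52.6 ± 2.13 CPM against 10.4 ± 1.34, and the p53 targets Cdkn1a and Mdm2 were higher in senescent ones, by 1.14 and 0.95 on the log2 scale. Under library totals without TMM the median over all genes tested moved from -0.02 to -0.32, the members called became 5 higher and 3 lower, and all genes 2952 higher and 7435 lower in place of 5158 and 5316. In bulk RNA, fewer cells of a type and less RNA per cell cannot be told apart.

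**Figure D2:**
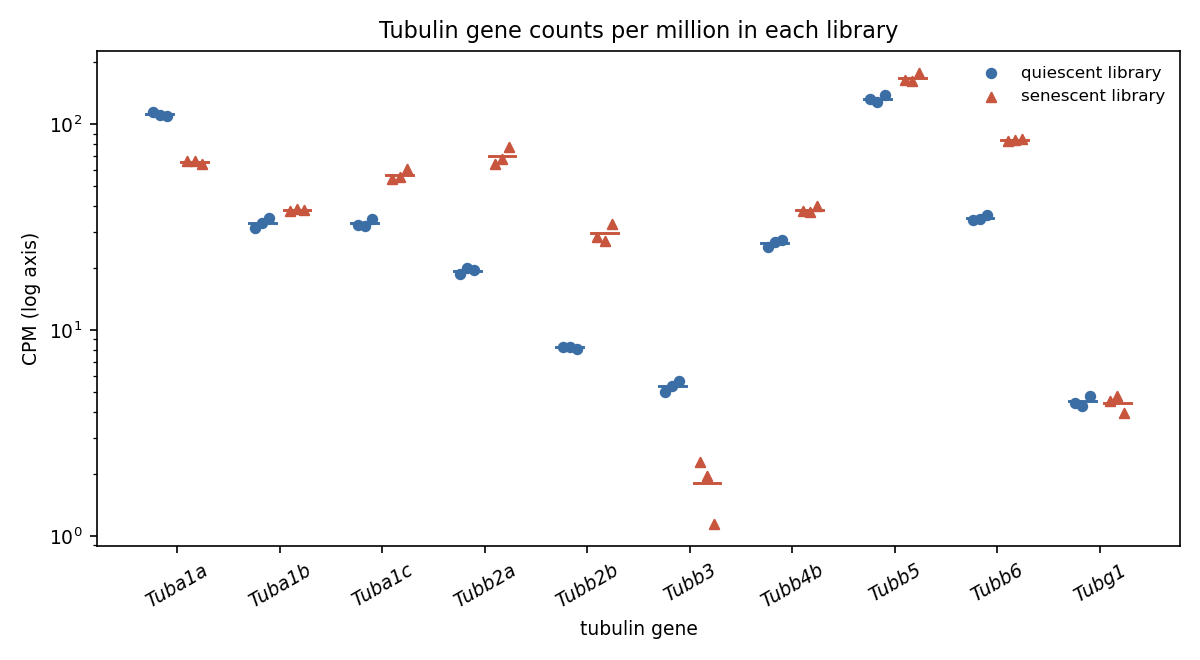
CPM of each tubulin gene on a log axis (y) in the 3 quiescent (circles) and 3 senescent (triangles) libraries, with horizontal lines at the group means. The groups are apart for 9 of 10 genes, with senescent libraries lower for Tuba1a and Tubb3, and overlap for Tubg1.

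The alpha genes lie together on chromosome 15, and Tuba1a and Tuba1c moved in opposite directions. Tuba1a, the main alpha isotype of developing neurons (98949837 to 98953703, minus strand), had 115, 111 and 110 CPM in the quiescent libraries and 66.5, 66.0 and 64.0 in the senescent ones. Every senescent library was lower than every quiescent one, and the spread within each group was small. The log2 fold change was -0.78 (SE, the standard error, 0.05, edgeR adjusted p = 3.3e-08), a 1.71-fold decrease. Tuba1c (99029891 to 99038110, plus strand), a widely expressed alpha isotype whose gene starts 76.2 kb from the Tuba1a locus, had 32.2, 32.1 and 34.8 CPM in quiescent and 54.2, 55.6 and 60.9 in senescent libraries. Here each senescent library was above each quiescent one, with senescent replicate 3 the highest. The log2 fold change was 0.78 (SE 0.06, edgeR adjusted p = 2.1e-07), a 1.72-fold increase, close in size to the Tuba1a decrease.

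Tuba1b (98931425 to 98934565, minus strand), a ubiquitous isotype 15.3 kb from Tuba1a, changed little. Its CPM were 31.3, 33.2 and 34.9 in quiescent and 37.9, 38.6 and 38.3 in senescent libraries, a gap between groups narrower than the quiescent range. Its log2 fold change of 0.21 (SE 0.05, edgeR adjusted p = 0.0028) did not hold under upper quartile scaling (0.11, edgeR adjusted p = 0.057) and became -0.09 under library totals (edgeR adjusted p = 0.30). The direction of Tuba1b therefore depends on the scaling, whereas those of Tuba1a and Tuba1c kept direction and call under all 15 alternatives. In the annotation a further gene model on the same strand, Gm49450, overlaps exons of both Tuba1a and Tuba1b.

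The widest increases among the 10 were in the pair Tubb2a and Tubb2b, which encode the class II beta isotypes abundant in neurons and lie 48.7 kb apart on chromosome 13. Tubb2a (34074274 to 34078007) had 18.7, 19.9 and 19.6 CPM in quiescent and 63.9, 67.6 and 77.9 in senescent libraries. Tubb2b (34126748 to 34130466) had 8.31, 8.32 and 8.06 in quiescent and 28.4, 27.1 and 32.9 in senescent libraries. For both genes the groups were far apart, and senescent replicate 3 was the highest. Their log2 fold changes were 1.84 for Tubb2a and 1.84 for Tubb2b (SE 0.07 each, edgeR adjusted p = 1.6e-09 and 1.3e-09), or 3.59-fold and 3.58-fold. The ratio of Tubb2b to Tubb2a in counts per kilobase of exon stayed at 0.297 ± 0.0124 in quiescent and 0.296 ± 0.0148 in senescent libraries, with overlapping groups. Another row moved alongside. The processed pseudogene Tubb2a-ps2, on another chromosome, had 43, 32 and 37 counts in quiescent and 105, 93 and 149 in senescent libraries, a log2 fold change of 1.80. Since 543 windows are common to Tubb2a and Tubb2b, and the pseudogene shares 70 with Tubb2a and 90 with Tubb2b, reads exchanged among the 3 rows are possible and were not tested.

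Tubb6, the class V beta isotype of many non-neuronal tissues (chromosome 18, 67390717 to 67402749), rose from 34.3, 34.8 and 36.4 CPM to 82.5, 84.2 and 85.0. The libraries within each group lay close together and the groups did not overlap. Its log2 fold change was 1.25 (SE 0.05, edgeR adjusted p = 8.6e-10), a 2.39-fold increase, in a gene with no window shared with another.

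The 2 broadly expressed beta genes rose less. Tubb4b, a class IV isotype also found in cilia (chromosome 2, 25222160 to 25224702), had 25.4, 26.7 and 27.5 CPM in quiescent and 38.1, 37.5 and 40.0 in senescent libraries. The groups were apart, with a log2 fold change of 0.54 (SE 0.05, edgeR adjusted p = 1.4e-06) that became 0.24 under library totals (edgeR adjusted p = 0.011). Fam166a, on the other strand and overlapping Tubb4b exons, held only 10 to 25 counts per library. Tubb5, the class I isotype of most cell types (chromosome 17, 35833921 to 35838306), had the highest CPM of the 10 in both groups, with 133, 128 and 138 in quiescent and 163, 163 and 177 in senescent libraries. Its groups did not overlap, but the log2 fold change of 0.33 (SE 0.05, edgeR adjusted p = 1.5e-04) fell to 0.04 under library totals (edgeR adjusted p = 0.70).

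Tubb3 was the only beta gene of the 10 that fell. It encodes the class III isotype, a marker of neurons that other cells also express at low level (chromosome 8, 123411424 to 123422015). Its CPM were 4.99, 5.34 and 5.63 in quiescent and 2.29, 1.96 and 1.15 in senescent libraries, from 530, 633 and 597 and from 229, 175 and 118 counts. All senescent libraries were below all quiescent ones, and senescent replicate 3 was lower than the other senescent libraries, so the senescent spread is wide for its level. The log2 fold change was -1.57 (SE 0.20, edgeR adjusted p = 1.3e-04), a 2.97-fold decrease, and -1.31 without senescent replicate 3. Among all genes tested, 6.93% had a lower log2 fold change than Tubb3 and 4.88% a higher one than Tubb2a.

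Tubg1, the main gamma-tubulin gene (chromosome 11, 101119938 to 101126419), showed no call. Its CPM were 4.40, 4.28 and 4.80 in quiescent and 4.53, 4.76 and 3.94 in senescent libraries, with the groups interleaved. The log2 fold change was -0.03 (SE 0.09, edgeR adjusted p = 0.77), which does not show that the level was the same. Under library totals it was -0.33 and passed as lower (edgeR adjusted p = 0.003).

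**Figure D3:**
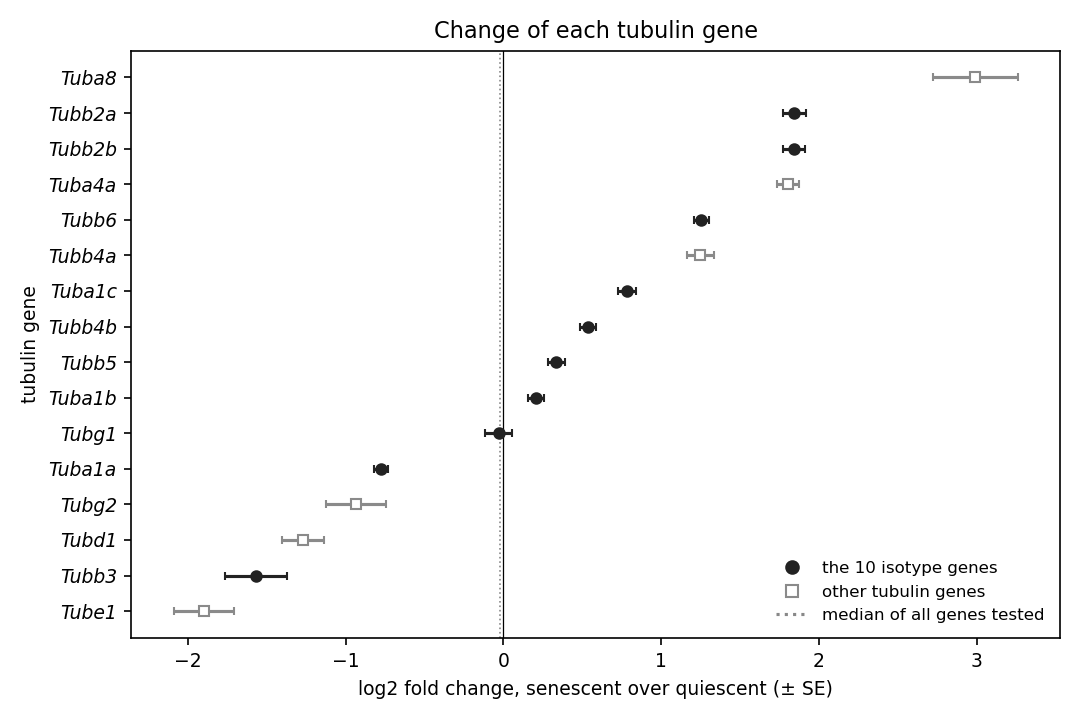
Log2 fold change, senescent over quiescent, with its SE (x axis) for the 10 isotype genes (filled circles) and the 6 other tubulin genes that passed the filter (open squares), ordered by size; the dotted line is the median of all genes tested. Tubb2a and Tubb2b stand highest of the 10 at 1.84 and Tubb3 lowest at -1.57.

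Per kilobase of exon the make-up of each tubulin class shifted. Levels on this scale are counts per kilobase of the union of a gene's exons, scaled to the same total as CPM, and shares are within the members of a class. Tuba1a made up 67.5%, 66.1% and 64.3% of the 3 alpha genes in quiescent libraries and 45.7%, 44.9% and 43.0% in senescent ones. Tuba1c went the other way, from 14.9%, 15.0% and 16.0% to 29.3%, 29.8% and 32.3%, and Tuba1b from 18.7 ± 1.01% to 25.0 ± 0.260%. Tuba1a was the largest alpha share in all 6 libraries. The order of the others turned: Tuba1b lay above Tuba1c in every quiescent library and below it in every senescent one. That turn depends on the length used. With only unshared windows counted as length, Tuba1b stayed above Tuba1c in senescent libraries, at 32.7 ± 0.253% against 24.6 ± 1.36%. In CPM, with no length, both genes had a quiescent mean of 33.1 CPM, and Tuba1b lay under Tuba1c in quiescent replicate 1 (31.3 against 32.2 CPM).

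Among the beta genes Tubb5 held 47.5%, 45.6% and 47.0% of the members' level in quiescent and 31.8%, 31.3% and 31.2% in senescent libraries, although its own level rose. Tubb2a took 13.8%, 14.7% and 13.8% in quiescent and 25.7%, 26.9% and 28.4% in senescent libraries. In quiescent libraries its mean share lay under those of Tubb5, Tubb6 and Tubb4b, and in senescent libraries under that of Tubb5 alone. This order too depends on the length used: with unshared windows as length Tubb2a stood above Tubb5 in all 3 senescent libraries (29.6 ± 1.41% against 26.6 ± 0.306%), and in CPM, with no length, it lay under Tubb6 as well as Tubb5 (69.8 ± 7.22 against 83.9 ± 1.23 CPM for Tubb6). Tubb6 went from 16.8 ± 0.103% to 21.5 ± 0.904%, Tubb2b from 4.19 ± 0.184% to 7.99 ± 0.417%, Tubb4b from 14.8 ± 0.341% to 11.5 ± 0.281% and Tubb3 from 3.32 ± 0.131% to 0.608 ± 0.224%. For each of the 9 alpha and beta genes the groups did not overlap in share; no test was run on shares.

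The summed level of the 3 alpha genes was 94.7, 93.5 and 95.0 counts per kilobase on this scale in quiescent and 80.8, 81.5 and 82.6 in senescent libraries, while the 6 beta genes summed to 84.1, 84.6 and 88.3 and to 155, 156 and 171. Alpha counts thus came to 0.865 of the quiescent level and beta counts to 1.87 times it. Both values rest on the TMM scaling and would be lower under library totals, where the median log2 fold change over all genes was -0.32. The alpha to beta ratio was 1.10 ± 0.0255 in quiescent and 0.510 ± 0.0218 in senescent libraries, and a library scaling cannot move it. Its size is not a measure of protein or of all alpha mRNA: with unshared windows as length the ratio was 2.39 ± 0.0505 and 1.07 ± 0.0510, and alpha genes have the most windows shared with other genes. With all tubulin genes of the class included, the alpha sum was 96.4 ± 0.777 and 88.8 ± 1.53.

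**Figure D4:**
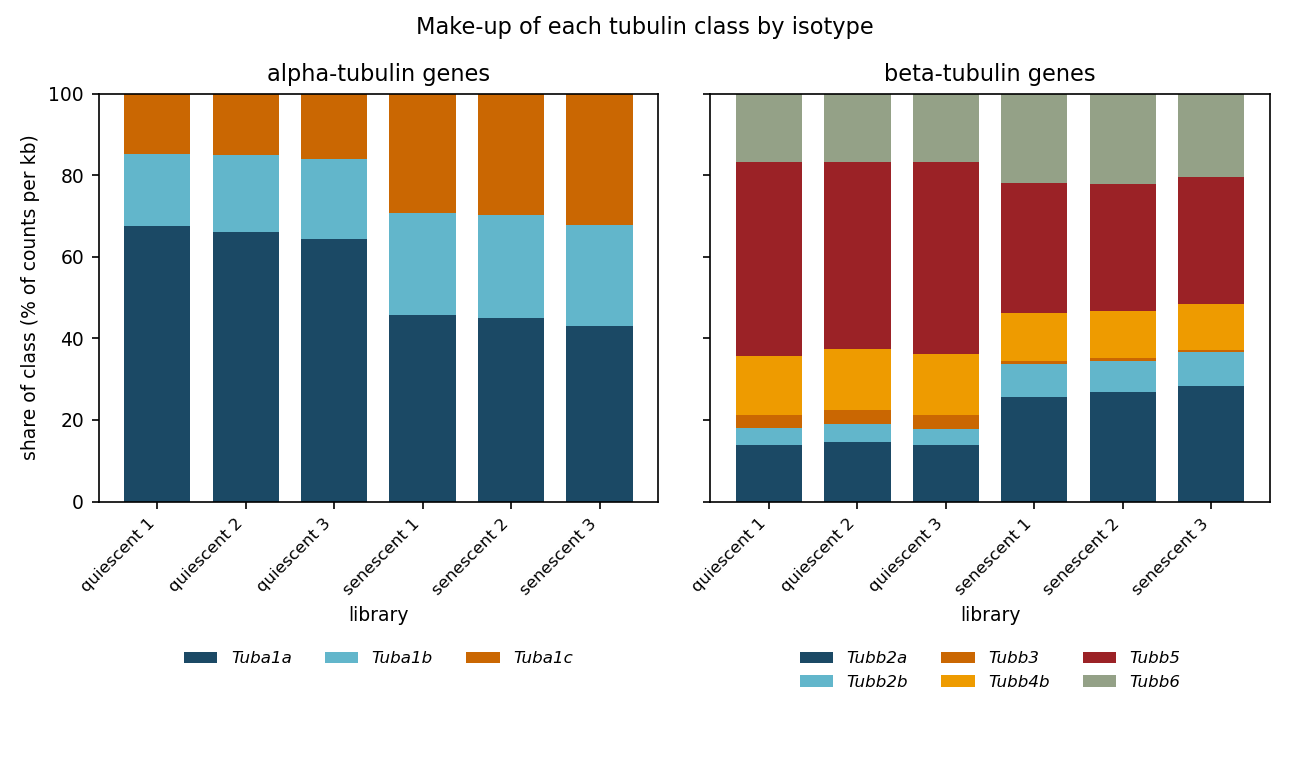
Share of each isotype in the summed counts per kilobase of exon of its class (y axis, percent) in each library (x axis), alpha genes on the left and beta genes on the right. The Tuba1a block shrinks from 64.3% to 67.5% in quiescent libraries to 43.0% to 45.7% in senescent ones, and the Tubb2a block grows from at most 14.7% to at least 25.7%.

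Of 10 other tubulin genes in the table, 6 passed the filter, with 3 higher and 3 lower. Among all genes tested 36.7% were higher and 37.8% lower. The minor alpha gene Tuba4a rose from 7.04, 7.40 and 7.54 to 24.6, 23.8 and 28.3 CPM (log2 fold change 1.80, SE 0.07, edgeR adjusted p = 1.2e-09), reaching 7.76 ± 0.589% of all alpha genes per kilobase from 2.05 ± 0.0745%. Tuba8, an alpha gene of muscle and testis, rose from 10, 11 and 7 counts to 70, 46 and 84 (log2 fold change 2.99, SE 0.27), and the mostly neuronal and glial beta gene Tubb4a rose by 1.25 on the log2 scale. The second gamma gene Tubg2, 29.5 kb from Tubg1, fell (log2 fold change -0.94, SE 0.19, edgeR adjusted p = 8.0e-04). Delta- and epsilon-tubulin, which belong to centrioles, fell as well, Tubd1 by 1.27 and Tube1 by 1.90 on the log2 scale. Tuba3a, Tuba3b and Tubal3 had 0 counts in all 6 libraries, and Tubb1 had at most 1.

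New tubulin chains are folded by prefoldin and the CCT chaperonin and then joined into dimers by the cofactors TBCA to TBCE. Of 15 genes of CCT and prefoldin, with a phosducin-like gene counted among them, 14 rose and none fell, with a median log2 fold change of 0.57. Under library totals 10 were higher and 1 lower. Counts under library totals in this paragraph are to be read against that setting, in which 2952 of 14065 genes tested were higher and 7435 lower. Pfdn4 (1.20, SE 0.10) and Pfdn2 (1.02, SE 0.06) changed most, and the CCT subunit gene Cct3 had 32.5 ± 0.627 CPM in quiescent and 54.1 ± 1.80 in senescent libraries. Of 8 genes of the cofactors and their relatives 3 were higher and 3 lower, with a median of -0.08, shares near those of all genes tested (36.7% higher and 37.8% lower). Tbcc (0.54) and Tbca (0.40) rose, and Tbccd1 (-0.73) and Arl2 (-0.39), the latter a small GTPase that works with the cofactors, fell. Under library totals 1 of these 8 was higher and 5 lower, and Tbca no longer passed (0.10, edgeR adjusted p = 0.25). Of 3 genes of tubulin mRNA feedback, Ttc5 did not pass (-0.11, edgeR adjusted p = 0.13), Cnot11 of the deadenylase complex did not pass (0.07), and Scaper, which links TTC5 to that complex, fell by 1.06 (SE 0.13). Under library totals all 3 were called lower.

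Genes that start and branch microtubules are given beside all genes tested, of which 37.8% were lower and 36.7% higher; no difference from that background was tested. Of 11 genes of the gamma-tubulin ring complex and its recruiters 7 fell and 1 rose, with a median of -0.18, beside the uncalled Tubg1. Pcnt, which encodes the centrosome scaffold pericentrin, fell by 1.11 and the small ring subunit gene Mzt2 by 0.83. The recruiter gene Nedd1 had a log2 fold change of 0.19 (edgeR adjusted p = 0.041), which was not kept in 7 of 15 alternatives and was -0.11 under library totals. Of the 8 subunits of augmin, which branches spindle microtubules, 5 fell and 1 rose (median -0.63), with Haus4 at -1.43, Haus5 at -1.26 and Haus2 at 0.41. The increase of Haus2 was 0.12 under library totals and did not pass (edgeR adjusted p = 0.38). All 13 spindle and mitosis genes fell, with a median of -2.08 and Nusap1 at -2.93 and Cenpf at -2.89, over the same libraries in which 7 tubulin genes rose.

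Of 19 tested enzymes that modify tubulin 8 were higher and 6 lower (median 0.18), near the shares of all genes tested (36.7% higher and 37.8% lower). Other counts of the main fit in this paragraph are to be read against those shares as well. Counts under library totals are to be read against that setting, in which 2952 of 14065 genes tested were higher and 7435 lower. Atat1, the acetyltransferase of alpha-tubulin, fell by 0.80, the deacetylase gene Sirt2 rose by 0.59, and the other deacetylase gene, Hdac6, had a log2 fold change of -0.02 with no call. Vash2, one of the enzymes that remove the last tyrosine of alpha-tubulin, rose by 0.69, and Agtpbp1, which trims glutamate chains, fell by 0.62. Under library totals 3 of the 19 were higher. Of 28 microtubule-binding and plus-end genes 13 rose and 8 fell (median 0.17). Map1b rose from 21.9 ± 3.22 to 60.9 ± 2.87 CPM and Map6 by 0.91 on the log2 scale, whereas Map2 (-2.84) and Mtus1 (-2.18) fell; under library totals 8 were higher. Of 10 tested destabilizing and severing genes 3 rose and 5 fell. The tubulin-sequestering gene Stmn1 fell from 16.1 ± 1.27 to 5.30 ± 0.386 CPM, and the related depolymerases split, with Kif2c, a mitotic one, at -2.66 and Kif2a at 1.47.

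**Figure D5:**
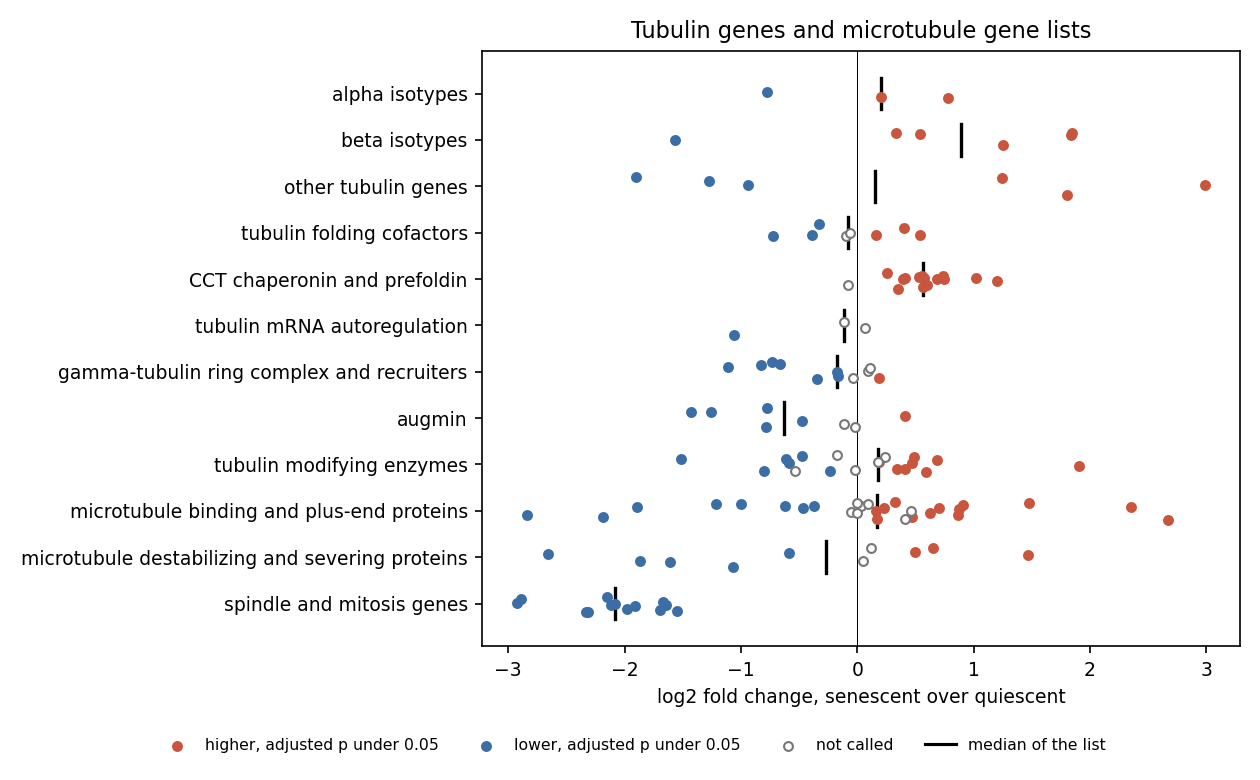
Log2 fold change, senescent over quiescent (x axis), of each tested gene in the tubulin classes and microtubule gene lists (rows), with red points called higher, blue points called lower, open points not called and black bars at the list medians. Nearly all CCT and prefoldin genes lie to the right of 0, and all 13 spindle and mitosis genes to the left.

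Several of the moving isotypes are best known from neurons, and markers of other cells were read beside them. Counts of called markers are to be read against all genes tested, of which 36.7% were higher and 37.8% lower. No difference from those shares was tested. Of 13 neuron and glia markers 5 passed the filter, with 3 higher and 2 lower, and their summed level was 0.981 to 1.16 CPM in quiescent and 3.54 to 4.61 in senescent libraries. Gap43 reached 2.02 ± 0.435 CPM and Nefm 1.15 ± 0.216 in senescent libraries, while the neuronal markers Rbfox3, Dcx, Elavl3 and Elavl4 stayed at or under 0.0313 CPM on average in either group, and Syp fell by 2.24 on the log2 scale. Of 10 multiciliated cell markers 4 passed the filter, with 2 lower and none higher, and Dnah5, Sntn and Pifo were at 0 throughout; the sum was 1.59 to 1.63 CPM in quiescent and 0.822 to 0.894 in senescent libraries. Of 8 macrophage markers 4 passed the filter and all 4 were higher, and the sum was 1.64 to 1.98 CPM in quiescent and 5.04 to 6.66 in senescent libraries. Summed epithelial markers stood at 1.21 to 1.22 and 6.10 to 7.87 CPM, carried mostly by Krt19 (0.847 ± 0.0405 and 6.60 ± 0.897 CPM), while Epcam, Cdh1, Sftpc and Scgb1a1 had mean levels of at most 0.033 CPM. Summed endothelial markers stood at 6.79 to 7.66 and 11.0 to 13.2 CPM, with Flt1 (1.83 ± 0.170 and 8.17 ± 0.647 CPM) the main riser, Cdh5 higher, Tek 6.36-fold lower, and Pecam1 and Cldn5 at most 0.0549 CPM on average. The mesothelial sums overlapped (8.70 to 9.91 and 8.97 to 11.0 CPM), but the members did not move together: Rspo1 (-4.19), Upk3b (-1.64) and Msln (-0.67) fell and Krt19, which stands in both lists, rose by 2.96 on the log2 scale. The part of other cell types, and of cells still dividing in the libraries labelled quiescent, in the tubulin changes was not tested.

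By distance over the 6 libraries in log2 CPM, each gene centred on its own mean, the genes nearest to Tubb2a among 6996 others (mean log2 CPM 2 or more) were Stom (distance 0.101, log2 fold change 1.89), Lrig1 (0.106, 1.89) and Pdpn (0.108, 1.82). Nearest to Tubb3 were Itga8 (0.247, -1.67), Synpo (0.311, -1.54) and Fhl1 (0.327, -1.52). Likeness over 6 libraries in 2 groups mostly reads the size of the group difference, and in such a search some close neighbours will be found for any gene.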

How the data were processed

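The authors deposited the 6 libraries as raw counts, whole numbers whose totals differ, with 1 row for each gene symbol. The submitters' processing notes list mm10, edgeR 3.32.1 and limma 3.46.0 without saying what each did; aligner, counter and use of strand: not given in the sources used here. A directional kit and paired reads of 100 bases were used, per the labels' protocols. The deposited counts per repeat name were not used.

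All genes were fitted at once in R 4.3.3 with edgeR 4.0.16 (a minimum count of 10 in filterByExpr by group, TMM, robust quasi-likelihood F test, Benjamini-Hochberg over all genes tested, threshold 0.05). Each standard error is the size of the log2 fold change over the root of its F. Levels are CPM on effective library sizes, with a prior count of 2 for log2 values. PCR reads without molecular identifiers give depth for counting error only. No replicate pair within a group agreed within sampling noise (chi-square per degree of freedom 4.06 to 34.9). This used raw counts without TMM and kept the 3 ribosomal rows, so differences in the ribosomal share between libraries enter it.

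Exon lengths, positions and coding sequences come from GENCODE M21 (24374 of 25239 symbols matched). Coding sequences were aligned globally with Biopython 1.88, and each 100-base window was sought on both strands of all annotated transcripts. The members and gene lists were chosen with earlier results of these data known. Named genes are the 10 members, other tubulin genes, state markers, up to 2 risen and 2 fallen genes per microtubule list (mean log2 CPM at least 0) and the 3 nearest genes to the extreme members; Hdac6, Cct3, Ttc5, Cnot11, Fam166a, Tubb2a-ps2 and the cell type markers were named after their values were seen. In simulated counts for this comparison (13895 genes), 52.0% of 50 genes changed 1.25-fold, 96.0% at 1.5-fold and 100% at 2-fold were recovered, with 7 false calls among 181. The simulation gave every gene the same spread beyond counting error and had no outlying library. Few genes changed in it, all of them well counted, whereas most genes were called in the data. These rates therefore need not hold for the data. Alternatives were DESeq2 1.42.0, limma-voom (limma 3.58.1), other scalings and filters, no ribosomal rows, the replicate number as a block, each library left out, and other lengths for the shares.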

Additional observations from a re-analysis of the deposited data

How the results depend on the processing

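Tuba1a, Tuba1c, Tubb2a, Tubb2b, Tubb3, Tubb4b and Tubb6 kept their direction and call in all 15 alternatives, with Tubb3 between -1.87 and -1.31 and Tubb2a between 1.55 and 1.91 on the log2 scale. Tuba1b was 0.11 under upper quartile scaling and -0.0892 under library totals, where Tubb5 was 0.0379, neither of them called, where Tubg1 (-0.329) was called lower, and where 2952 of all genes were higher and Nedd1 was -0.114; the cause was not tested. Leaving out 1 library gave Tubg1 values of -0.0848 to 0.0528, positive without quiescent replicate 3 or senescent replicate 3 and never called. No sign was seen that replicate numbers pair the libraries, though 3 libraries per group cannot exclude such pairing. Correlations of same-numbered deviations were 0.051, -0.010 and 0.058, and quiescent replicate 2 correlated most with senescent replicate 1. With the replicate block 5124 genes were higher and 5281 lower, with 7 and 2 of the members.

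Differences in share, senescent minus quiescent in percentage points, kept their sign in every alternative. With raw counts they were 5.26 for Tuba1b, 16.9 for Tuba1c, 9.27 for Tubb2a, -1.87 for Tubb3, -1.80 for Tubb4b and 6.03 for Tubb6. With the longest transcript as length they were 11.0 for Tubb2a, 3.41 for Tubb2b, -2.19 for Tubb3 and 5.81 for Tubb6. With all genes of the class as denominator they were -23.7 for Tuba1a, 4.66 for Tuba1b and 12.997 for Tuba1c. With unshared windows as length, chosen after seeing the data, they were 8.26 for Tuba1b, 12.2 for Tuba1c, -1.93 for Tubb3, -4.97 for Tubb4b, -14.2 for Tubb5 and 3.90 for Tubb6. These moves follow from the lengths or the denominator used. Depth limits Tuba8, with 7 to 84 counts per library.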
